A study of Mus musculus with 2 samples.

Results

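Proliferating hepatocytes were defined in a pooled single-cell RNA library of mouse liver as hepatocyte barcodes carrying messages of mitosis. A barcode of the gene matrix was kept with at least 500 genes and 1000 gene UMIs (unique molecular identifiers, each counted as 1 captured RNA molecule) and with less than 20% of its UMIs from mitochondrial genes. A hepatocyte had at least 1% of its gene UMIs from Alb, Apoa1, Apoa2, Ttr and Fgb, less than 0.5% from the MHC class II genes H2-Aa, H2-Ab1, H2-Eb1 and Cd74, and at most 1 UMI of the endothelial genes Clec4g, Ptprb and Kdr. Of 13151 barcodes, 10220 passed the depth and mitochondrial limits and 8005 were hepatocytes by these genes. Proliferating hepatocytes were chosen by measured values, as those with a UMI of at least 4 of 10 genes (Ube2c, Birc5, Cdkn3, Cdca3, Cdc20, Cdk1, Ccnb1, Ccnb2, Top2a and Mki67). They numbered 162 of 8005, or 2.02% (exact binomial 95% interval 1.73 to 2.36%). The 6982 hepatocytes with none of the 10 genes served as the comparison cells, and 861 hepatocytes with 1 to 3 of the genes lay between.

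The livers came from female BL6 (C57BL/6) mice, given at 6 to 8 weeks of age a hydrodynamic tail vein (HDTV) injection, which drives plasmid DNA into hepatocytes by volume and pressure, and were taken on day 6. The plasmid was a transposon, supplied with the SB13 transposase, in which the CAGGS promoter drives mVenus together with either NRAS(G12V), a constitutively active RAS oncoprotein, or NRAS(G12V/D38A), a version whose effector domain is mutated so that it does not signal onward. Cells of 3 mice were labelled with hashtag antibodies, sorted for mVenus, pooled and loaded on 2 lanes of 1 droplet run, so every mouse shares the droplet run and the library. The methods place the pooling after the sort. The deposited table pairs hashtag 1 with the NRAS(G12V/D38A) mouse and hashtags 2 and 3 with the NRAS(G12V) mice, whereas the study's methods pair hashtags 1 and 2 with NRAS(G12V) and hashtag 3 with NRAS(G12V/D38A). The mice are therefore named by hashtag here, and with either pairing the NRAS(G12V/D38A) group is 1 mouse. Most hepatocytes carried no clear hashtag. The 162 proliferating cells comprised 15 of hashtag 1, 18 of hashtag 2, 2 of hashtag 3, 2 doublets and 125 without a call.

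The adult liver is largely quiescent, and its hepatocytes re-enter the cycle after injury, after loss of tissue or under mitogenic signals. A cycling cell first makes the enzymes of DNA synthesis under the E2F factors, and later, in G2 and mitosis, the cyclin B and CDK1 kinase, the kinetochore and spindle proteins, and the ubiquitin ligase machinery that ends mitosis. Genes of the late group are held silent in resting cells by the DREAM complex, which binds a short element called the cell cycle genes homology region (CHR), and are switched on through the same element by B-MYB and FOXM1. In hepatocytes RAS signalling can drive either proliferation or senescence, a lasting arrest held by inhibitors of cyclin-dependent kinases.

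Promoters of 3 of the 10 genes are shown as examples of the CHR and CCAAT elements near the start of late cell cycle genes. RefSeq windows of GRCm38.p6 from 250 bases before to 50 bases after the annotated start were found for 10 of 10 genes. On either strand the CHR letters TTTGAA occurred in 8 of the 10 windows, against 17.9% of 32851 windows of all genes, and the CCAAT box in 9 of 10, against 37.4%. An E2F sequence (TTTCCCGC, TTTCGCGC, TTTGCCGC or TTTGGCGC) occurred in 1 of 10, that of Cdk1, against 2.26% of all windows. These are matches of letters and not measured binding. The 120 bases that end just before the RefSeq start are given 5′ to 3′ on the strand of the gene for a DNA topoisomerase (Top2a, chr11:99024190-99024309, minus strand), the mitotic kinase (Cdk1, chr10:69352913-69353032, minus strand) and the activator of the anaphase-promoting complex (Cdc20, chr4:118437344-118437463, minus strand), with TTTGAA and CCAAT, or their reverse complements TTCAAA and ATTGG, in capitals.
Top2a: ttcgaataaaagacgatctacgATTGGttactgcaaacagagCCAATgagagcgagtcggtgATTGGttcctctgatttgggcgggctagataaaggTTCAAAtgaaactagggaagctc
Cdk1: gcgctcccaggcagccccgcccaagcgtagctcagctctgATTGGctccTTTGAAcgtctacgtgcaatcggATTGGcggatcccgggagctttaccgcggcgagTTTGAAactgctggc
Cdc20: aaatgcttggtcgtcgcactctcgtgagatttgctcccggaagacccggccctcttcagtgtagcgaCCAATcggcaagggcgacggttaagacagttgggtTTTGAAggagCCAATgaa
Among the other genes the elements were not universal, with neither in the window of Birc5, no CHR in that of Ccnb1 and that of Cdca3 only downstream of the start. The CHR nearest to the start lay 15 bases before it in Cdk1, 18 in Cdc20 and 23 in Top2a, and each of the 3 stretches also held a CCAAT box further upstream.

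The selected cells carried hepatocyte RNA and little of other liver cells. Summed over 14 hepatocyte markers, which include the 5 genes of the gate, they held 135000 CPM (gene UMIs scaled to 1e6 per group, not scaled for gene length because only 3′ ends were counted), against 94800 CPM in the comparison cells, and none of the 14 genes was at 0. Among 12 endothelial markers they held 51 UMIs with 4 genes at 0, a summed 22.4 CPM against 27.0 CPM in the comparison cells and 13800 CPM in the 794 barcodes gated as endothelial, with 3 of the 12 used by the gate. Of 13 T and NK cell markers 12 were at 0 and 1 UMI was seen, and of 15 myeloid markers 9 were at 0, with 13 UMIs in all (5.7 CPM, against 34.8 CPM in the comparison cells). The 11 dendritic cell markers came to 83.7 CPM against 85.0 CPM, and to 51800 CPM in the 1036 barcodes gated by MHC class II, but 4 of them are the MHC class II genes that the gates limit, so their sum is no check. B cell markers held 10 UMIs with 4 of 7 genes at 0, stellate markers 84 UMIs in 1 of 8 genes (Reln), cholangiocyte markers 108 UMIs with 2 of 5 at 0, and erythroid markers 7 UMIs with 4 of 6 at 0. Ptprc, Pecam1, Cdh5, Cd3e, Csf1r and Col1a1 were all at 0 in the 162 cells. The cholangiocyte sum was mostly Sox9, with 96 UMIs in 21 of the 162 cells (42.1 CPM, against 82.1 CPM in the comparison cells). Apart from Sox9 and Reln, the lists that the gates did not use thus held few UMIs.

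Hepatocyte barcodes came in 2 kinds that differed widely in depth, and the proliferating cells included both. With a split at 3% mitochondrial UMIs, set after the values had been seen, 121 of the 162 cells (74.7%) were in the low class, with a median of 4027 UMIs per cell, and 41 were in the higher class, with a median of 39340. The comparison cells divided alike, with 4941 (70.8%) in the low class at a median of 2572 UMIs and 2041 in the higher class at 31785. Over all 162 cells the UMI count ran from 1171 to 95798 with a median of 5273, and in the comparison cells from 1000 to 135715 with a median of 3409. The share of proliferating cells moved with depth, being 0.688% (14 of 2035) among hepatocytes of 1000 to 2000 UMIs, 2.33% (64 of 2748) at 2000 to 5000, 3.55% (25 of 704) at 10000 to 30000 and 1.86% (27 of 1450) at 30000 or more. Most comparisons below are therefore between cells matched or thinned in depth, or are given for each class of barcode.

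**Figure D1:**
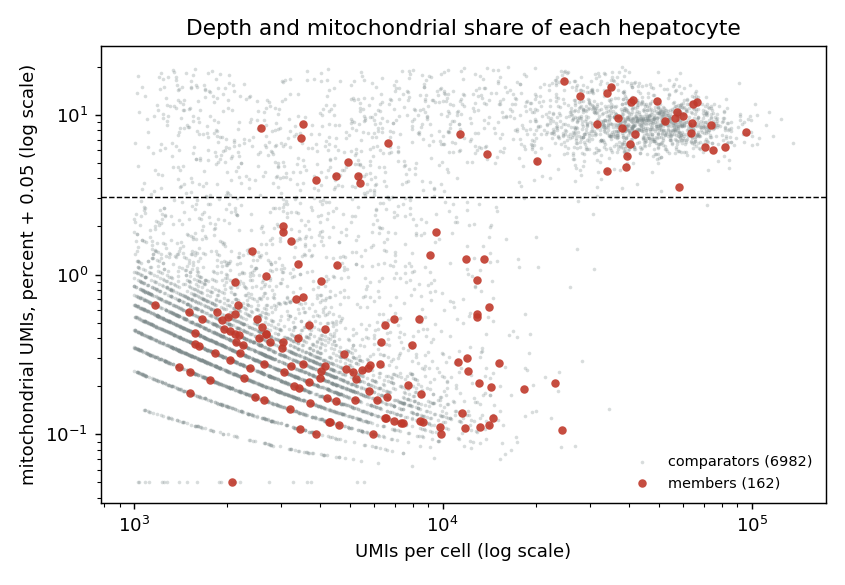
Mitochondrial UMIs of each cell, as percent + 0.05 on a log axis, against gene UMIs per cell, also on a log axis, for comparison hepatocytes (comparators, grey) and the 162 proliferating hepatocytes (members, red), with the split at 3% dashed. Both sets fall into a shallow group with under 3% mitochondrial UMIs, which holds 121 of the 162, and a deeper group, which holds 41.

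The 10 genes that chose the cells are described without a test. Ube2c, the E2 enzyme of the anaphase-promoting complex, had the highest level at 563 CPM and was seen in 122 of 162 cells. Birc5, or survivin, a member of the chromosomal passenger complex, was the most widely seen, in 148 cells at 374 CPM. Cdkn3, a phosphatase acting on CDK1, was seen in 137 cells (294 CPM), Cdca3 in 131 (241 CPM), Cdc20 in 112 (228 CPM) and Cdk1 in 105 (242 CPM). The cyclins B, partners of CDK1, were lower, with Ccnb2 in 102 cells (132 CPM) and Ccnb1 in 93 (137 CPM). Top2a and the proliferation antigen Mki67 were the least seen, in 44 cells (64.0 CPM) and 39 cells (68.8 CPM). By the rule all 10 were at 0 in the comparison cells.

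Cells at the threshold of 4 genes resembled those just below it. The 35 cells with exactly 4 genes had a median of 7 UMIs of the 10 genes, or 19 per 10000 UMIs, at a median depth of 3402. The 37 hepatocytes with 3 genes had a median of 4 such UMIs, or 12.6 per 10000, at a median depth of 4281. Hepatocytes with 1 gene (738) were far more numerous than those with 2 (86). At the other end, 11 cells had all 10 genes, with a median of 172 UMIs of them at a median depth of 58145.

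**Figure D2:**
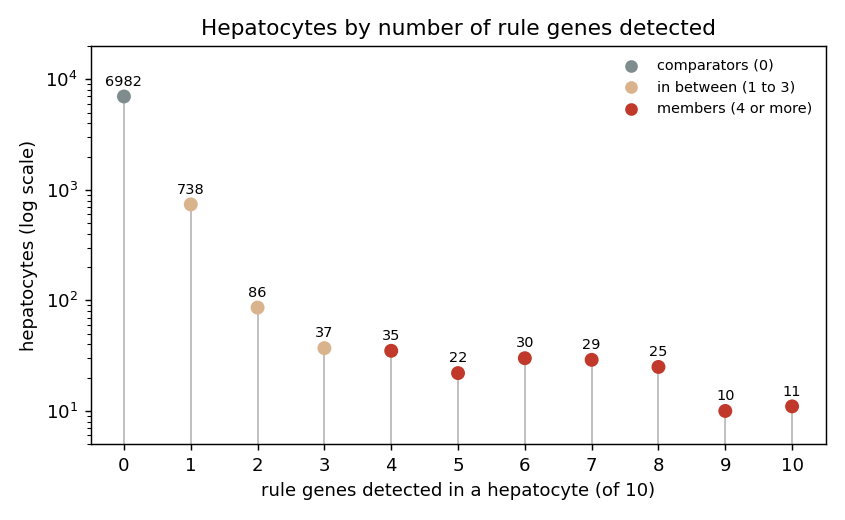
Number of hepatocytes (log axis) by how many of the 10 genes had at least 1 UMI, with the threshold at 4. Counts fall from 738 cells with 1 gene to 37 with 3, lie between 22 and 35 from 4 to 8 genes, and reach 11 at 10 genes.

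Genes of mitosis outside the rule and genes of DNA synthesis were both present, with the mitotic list at the higher level. All 162 cells had a UMI of the mitotic list and all but 2 had one of the replication list. They are transcribed in the same cells as the 10 genes, so their presence is a description of the cells and no separate evidence. Of 75 genes of the mitotic kinases, kinetochore and spindle, 60 had a UMI in at least 10% of the proliferating cells and 15 did so in the comparison cells. Of 53 genes of DNA replication, 29 and 12 did. With each cell thinned to 2000 UMIs, the numbers were 36 and 10 in the proliferating cells and 8 and 1 in the comparison cells. Summed per cell, the 75 mitotic genes had a median of 130 UMIs per 10000 in the proliferating cells and 12.9 in the comparison cells, and the 53 replication genes 14.9 and 3.98. The mitotic sum exceeded the replication sum in 162 of 162 cells, but also in 5625 of 6982 comparison cells and 1012 of 1036 barcodes of the MHC class II gate, the lists being unequal in length and in level.

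Among the mitotic genes, Stmn1, which destabilises microtubules, was seen in 160 cells (1020 CPM, against 106 CPM in the comparison cells) and the tubulin gene Tubb4b in 159 (1260 against 138 CPM). Ube2s, which elongates ubiquitin chains for the anaphase-promoting complex, was seen in 141 cells (484 against 90.6 CPM). At the kinetochore, Spc24 was seen in 110 cells (184 against 10.5 CPM) and the centromeric histone gene Cenpa in 105 (166 against 5.5 CPM). All of these structural genes were also present in the comparison cells at lower levels, whereas the mitotic kinases were nearly absent from them. Aurka and Plk1 were seen in 65 cells (75.8 against 0.399 CPM) and 54 cells (56.6 against 0.0605 CPM), and cyclin A2 (Ccna2) in 56 (61.4 against 0.0967 CPM). Of the genes of nucleotide synthesis, Tyms was seen in 89 cells (109 against 14.8 CPM) and Rrm2, the small subunit of ribonucleotide reductase, in 72 (87.7 against 1.1 CPM). Components of the replication fork and its licensing were sparser. Pcna was seen in 26 cells (24.6 against 12.4 CPM), Mcm2 in 14 (8.33 against 2.94 CPM), the G1/S cyclin gene Ccne1 in 6 (3.07 against 1.05 CPM) and Cdc6 in 3, and Orc1 was not detected at this depth. Cytokinesis genes were also uneven, with Ect2 in 36 cells and Anln in 15. Of the activators of the late programme, Foxm1 was seen in 17 cells and Mybl2, which encodes B-MYB, in none.

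**Figure D3:**
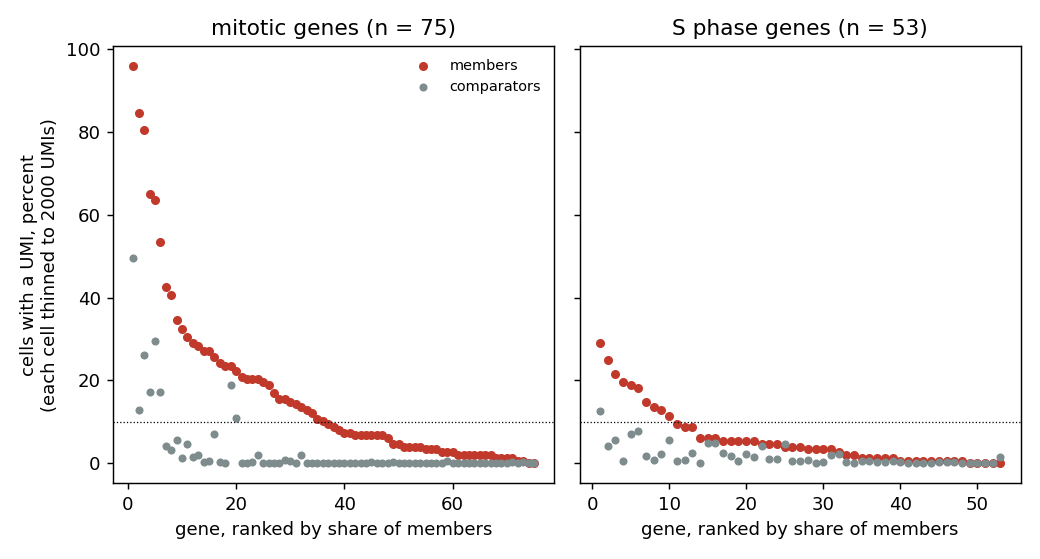
Percentage of cells with a UMI, each cell thinned to 2000 UMIs, for mitotic (left) and replication or S phase genes (right) outside the rule, ranked by the share of proliferating cells (members, red) with the comparison cells (comparators, grey) at the same rank and a dotted line at 10%. Mitotic genes reach higher percentages (Stmn1 84.5% against 12.8%, Cenpa 32.4% against 1.21%) than replication genes such as Tyms (25.0% against 4.2%).

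The injected construct was seldom abundant in proliferating hepatocytes. Its RNA is read in the mouse Nras row, together with the endogenous gene, and in a row for mVenus. Unmatched in depth, an Nras UMI was seen in 40.7% of proliferating and 38.2% of comparison cells, so absence of Nras was no trait of the proliferating cells. An mVenus UMI was seen in 5.56% and 14.1%. Of the 162 cells, 96 had no Nras UMI, 9 had an mVenus UMI and 3 had 10 or more Nras UMIs. Of those 3 cells, a pair from the mouse of hashtag 1 had 10 Nras among 24801 gene UMIs and 36 among 95798, and a cell from that of hashtag 2 had 83 among 70484. At 10 or more Nras UMIs per 10000 there were 2 proliferating cells (1.23%, exact 95% interval 0.15 to 4.39%) and 397 of 6982 comparison cells (5.69%, 5.15 to 6.26%). In the low mitochondrial class Nras stood at 75.8 CPM in proliferating and 324 CPM in comparison cells, and mVenus at 4.29 and 39.3 CPM. The higher class had Nras at 136 and 871 CPM and mVenus at 7.59 and 69.7 CPM. Barcodes of other cell types also held construct RNA. Those gated as endothelial had 240 CPM of Nras and 30.6 CPM of mVenus and those gated by MHC class II 244 and 14.2 CPM. Summed over each class of barcode, the proliferating cells were below both gates in both rows, so these summed levels cannot be told from free RNA. The 3 cells with 10 or more Nras UMIs each had mVenus UMIs as well (3, 1 and 2).

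With every cell thinned to 10000 UMIs, proliferating cells were found at low Nras counts and not at 10 or more. They were 30 of 1356 hepatocytes (2.21%, exact 95% interval 1.5 to 3.14%) with 0 to 1 Nras UMIs and 10 of 499 (2.0%, 0.965 to 3.65%) with 2 to 9. None was found among 234 hepatocytes with 10 to 49 Nras UMIs, which allows a share of up to 1.28% at 3 counts (exact 95% upper bound 1.56%), or among 65 with 50 or more, which allows up to 4.62% (exact upper bound 5.52%). These limits and intervals cover counting error only. Before thinning, the cell with 83 Nras among 70484 gene UMIs lay above 10 per 10000. The absence at 10 or more thus depends on the draw of UMIs. The exact intervals of both bins at 10 or more Nras UMIs overlapped that at 0 to 1. Overlap of intervals is no test, so whether the share differed is not decided here. No hashtag call had a proliferating cell at 10 or more Nras UMIs. Hashtag 1 had 8 of 94 proliferating cells (8.51%) at 0 to 1 Nras UMIs, 3 of 38 (7.89%) at 2 to 9 and 0 of 39 at 10 to 49. Hashtag 2 had 6 of 667 (0.9%), 2 of 260 (0.769%) and 0 of 120, and cells with no hashtag call 15 of 562 (2.67%), 5 of 192 (2.6%) and 0 of 73. Class of barcode moved with the Nras count. In higher mitochondrial cells alone the shares were 14 of 1184 (1.18%), 8 of 456 (1.75%), 0 of 216 and 0 of 62, and in low mitochondrial cells 16 of 172 (9.3%), 2 of 43 (4.65%), 0 of 18 and 0 of 3. Counted by mVenus, 40 of 1934 cells (2.07%) with 0 to 1 UMIs were proliferating and 0 of 210 with 2 to 9 were. Cells are not replicates, so no test was made.

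**Figure D4:**
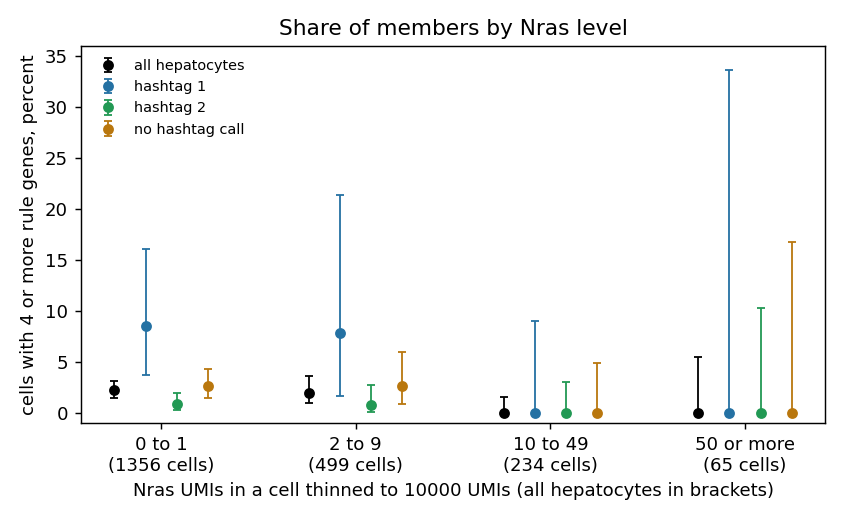
Percentage of hepatocytes that were proliferating (points, with exact binomial 95% intervals as bars) by Nras UMIs in cells thinned to 10000 UMIs, over all hepatocytes and by hashtag call. The share is 2.21% at 0 to 1 and 2.0% at 2 to 9 Nras UMIs, and in this draw of UMIs no proliferating cell lies at 10 or more.

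To ask how the rest of the transcriptome differed, UMIs were summed per mouse over proliferating cells and over as many comparison cells of the same mouse and depth. Genes of the kinetochore and spindle, the secreted liver protein genes Apoc3, Hamp, Lect2 and Lcn2, and the imprinted gene Dlk1 were higher in proliferating cells. Construct RNA, the annexin and S100 genes Anxa3 and S100a6, Hmga2, Clu and the nuclear RNAs Neat1 and Malat1 were lower. Only hashtags 1 and 2 had enough cells, with 15 and 18 proliferating cells against 15 and 18 comparison cells, which are 1 mouse of each construct by the deposited pairing and 2 NRAS(G12V) mice by the methods. The sums were 302428 and 305492 UMIs for hashtag 1 and 848494 and 848282 for hashtag 2, and the deepest cell gave 31.7% of hashtag 1's proliferating UMIs. The low mitochondrial class held 10 of 15 proliferating and 7 of 15 comparison cells in hashtag 1, and 1 of 18 in each set in hashtag 2. Matching this class too, chosen after the data had been seen, left 49 of the 66 genes called below and all 66 in the same direction. Which cells stand for which mouse depends on the way hashtags were called. A fixed hashtag rule, given below, left 44 and 2 proliferating cells in hashtags 1 and 2, too few in hashtag 2 for this test. Of 4804 genes tested by edgeR's quasi-likelihood test, with the 10 genes of the rule and the 12 of the gates left out, 66 (1.37%) passed a Benjamini-Hochberg adjusted p of 0.05, 43 (0.895%) higher and 23 (0.479%) lower in proliferating cells. With 2 mice the spread has 1 degree of freedom among samples. At an unadjusted p under 0.05 there were 853 genes, and the median log2 fold change of all tested genes was -0.03. With 5 comparison cells per proliferating cell, chosen after the data had been seen, 337 of 6854 genes (4.92%) passed, 219 (3.2%) of them higher and 118 (1.72%) lower, with 64 of the 66 among them and all 66 in the same direction.

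Cell cycle genes were among the rises, which the rule predetermines. Of 12 kinetochore and chromosome genes tested (23 listed), 10 rose and 0 fell, with a median log2 fold change of 4.15. Of 10 spindle and cytokinesis genes (28 listed), 3 rose (median 3.43), and of 9 mitotic kinase and checkpoint genes (24 listed), 1 rose (median 1.74). The replication list had 3 of 13 tested (53 listed) rise, with a median of 1.32. Genes with few UMIs were not tested, and several of those tested passed the count filter through the proliferating cells alone, so these counts and medians describe the cells chosen and support nothing further. Cenpf, a kinetochore protein of late G2, had 10 and 73 UMIs in the proliferating cells of hashtags 1 and 2 and 0 in both sets of comparison cells. The spindle gene Hmmr had 13 and 64 UMIs, Rrm2 17 and 49, Prc1, which bundles the central spindle, 8 and 48 and the noncoding RNA gene Lockd 12 and 53, each likewise against 0 and 0. In each of these genes the comparison cells of both mice had no UMI. The condensin genes Smc2 and Smc4 had 11 and 50 UMIs against 0 and 3, and 13 and 99 against 2 and 4. Spc24 had 39 and 134 UMIs against 6 and 3 (log2 fold change 4.16 ± 0.59, SE) and Cenpa 18 and 88 against 1 and 7 (3.76 ± 0.40). Knstrn, Cdca8, Cenpm, Hmgb2, H2afz, Ube2s, Tubb4b and Tk1 also rose. Aurka (7 and 38 UMIs against 0 and 0; adjusted p = 0.0520) and Ccna2 (7 and 29 against 0 and 0; adjusted p = 0.0643) fell short of the threshold. Plk1 (5 and 33 against 0 and 0), Pcna (7 and 14 against 3 and 11) and Mcm2 (1 and 7 against 0 and 1) had too few UMIs to be tested.

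No tested regulator of G1 passed the threshold. Of 5 tested genes of the G1 cyclins and E2F factors (20 listed), 0 passed in either direction, with a median log2 fold change of -0.90. With 1.37% of all tested genes passing, a count of 0 in so short a list cannot tell it from the rest. Cyclin D1 (Ccnd1), the growth-factor-responsive cyclin, had 16 and 62 UMIs in proliferating cells against 61 and 127 (-1.31 ± 0.29; adjusted p = 0.108). With 5 comparison cells 2 of 8 tested genes of the list fell, Ccnd1 among them (log2 fold change -1.51; adjusted p = 0.0241), where 1.72% of all tested genes fell. Myc was too low to test, with 0 and 3 UMIs against 19 and 13, and none of 17 tested MYC and nucleolar genes passed (median -0.03).

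The cyclin-dependent kinase inhibitors were present in proliferating cells at levels that depended on the gene. By edgeR's quasi-likelihood test none of 3 tested members (7 listed) passed, where 1.37% of all tested genes did. Cdkn2c was positive (log2 fold change 0.47, adjusted p = 0.627), but negative between cells under 2 Nras UMIs per 10000 (-0.45, adjusted p = 0.877). Over all cells, unmatched in depth, Cdkn2c stood at 50.4 CPM in proliferating and 29.5 CPM in comparison cells, and Cdkn1b at 19.3 and 12.7 CPM. Cdkn1c had too few UMIs to be tested, with 2 and 11 against 3 and 6. Cdkn1a, which encodes the p53-induced inhibitor p21, had 14 and 49 UMIs against 21 and 51 (log2 fold change -0.18; adjusted p = 0.809). Cdkn2b, encoding p15, had 17 and 7 UMIs against 56 and 116 (-2.67 ± 0.56; adjusted p = 0.0949). It passed in 7 of 14 alternatives, among them DESeq2 and, under 2 Nras UMIs per 10000 with 5 comparison cells, edgeR (-3.11; adjusted p = 0.0227), and was negative in all 14. Cdkn2a was at 0 in all 162 cells, which allows a share of up to 2.25% (exact upper bound). It was seen in only 120 of 6982 comparison cells (1.72%), so the share of cells with Cdkn2a does not separate the groups. By pooled UMIs the upper bound of 1.62 CPM lay below the 2.49 CPM of the comparison cells, but that bound covers counting error only. The matched sums of Cdkn2a, 0 and 0 UMIs against 3 and 0, were too low to test. By class of barcode Cdkn1a differed in opposite directions, at 149 CPM in proliferating against 36.7 CPM in comparison cells of the low mitochondrial class and 77.8 against 116 CPM in the higher class. Cdkn2b was lower in both, at 7.15 against 38.2 CPM and 22.1 against 175 CPM. Of 15 tested p53 targets none passed (median -0.21), with Mdm2 at -0.33 (adjusted p = 0.693) and Ccng1 at -0.21 (adjusted p = 0.789).

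No tested gene of ERK signalling output or of the senescence secretory list passed, and their medians were negative. Over all tested genes 1.37% passed. All 9 tested ERK output genes (20 listed) had negative log2 fold changes with a median of -0.75, and 0 passed. With 5 comparison cells 4 of 15 tested genes fell and 0 rose, where 1.72% of all tested genes fell. The 6 tested senescence secretory genes (22 listed) had a median of -0.94 and 0 passed. With 5 comparison cells 4 of 10 tested secretory genes fell and 0 rose. Spp1, encoding osteopontin, had 1187 and 156 UMIs in proliferating cells against 1771 and 4066 (-2.51; adjusted p = 0.308), with the larger gap in the mouse of hashtag 2. Between cells under 2 Nras UMIs per 10000, 0 of 8 tested ERK output and 0 of 3 tested secretory genes passed, where 1.41% of all tested genes did. With 5 such comparison cells 1 of 10 and 1 of 6 fell, where 0.609% of all tested genes fell.

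Construct RNA was lower in proliferating cells, as were S100a6 and Anxa3. Nras had 50 and 125 UMIs in proliferating cells against 327 and 659 (log2 fold change -2.46 ± 0.20; adjusted p = 0.0219), and mVenus 4 and 2 against 40 and 56 (-3.85 ± 0.47; adjusted p = 0.0390). S100a6, a calcium-binding protein of activated and injured cells, had 37 and 219 UMIs against 1021 and 2535 (-4.02 ± 0.32; adjusted p = 0.0219). Anxa3 had 2 and 16 UMIs against 99 and 335 (-4.61 ± 0.33; adjusted p = 0.0219). Tinagl1, encoding a matricellular protein, had no UMI in the tested proliferating cells of either mouse and 19 and 60 in comparison cells, which is at least 26.3-fold lower against a floor of 3 UMIs over both mice. Tinagl1 passed the count filter through the comparison cells alone, so its fall is given as a description. Over all 162 cells the gap was smaller, with 15 UMIs in 9 cells (6.58 CPM, against 61.6 CPM in the comparison cells). In cells without a hashtag call Tinagl1 stood at 14.3 against 53.5 CPM. Barcodes gated as endothelial had 658 CPM of Tinagl1. Sprr1a (4 and 12 UMIs against 138 and 92), Lgals3, encoding galectin-3 (3 and 13 against 16 and 121), and Tm4sf4 (81 and 279 against 811 and 1298) fell too. In every one of these genes the proliferating cells were lower in both mice. Of 10 tested progenitor and oncofetal genes (21 listed), Hmga2, an oncofetal chromatin protein (1 and 5 UMIs against 39 and 53), and Krt18 (133 and 410 against 603 and 1275) fell and Dlk1 rose. Over all tested genes 0.479% fell and 0.895% rose. Clu, encoding the secreted chaperone clusterin, and 2 nuclear RNAs fell by less. Clu had 667 and 1351 UMIs against 2918 and 4581 (-1.85 ± 0.16; adjusted p = 0.0219). Neat1 had 52 and 269 against 421 and 935, and Malat1 1347 and 2765 against 6319 and 7418 (-1.74; adjusted p = 0.0390). Malat1 did not keep its direction by class of barcode, standing at 1830 against 344 CPM in low mitochondrial cells and 4260 against 12400 CPM in higher ones.

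Construct level differed between the cells compared. At 10 or more Nras UMIs per 10000 there were 0 of 15 and 1 of 18 proliferating cells and 3 of 15 and 4 of 18 comparison cells, in hashtags 1 and 2. With both sets limited to cells under 2 Nras UMIs per 10000, a limit set after the data had been seen, 60 of 4253 genes (1.41%) passed, 49 (1.15%) higher and 11 (0.259%) lower. With 5 such comparison cells 132 of 5583 (2.36%) passed, 98 (1.76%) higher and 34 (0.609%) lower, and 47 of the 63 original calls tested there were called again. With 1 comparison cell, 58 of the 66 genes could be tested, 29 passed and 57 kept their direction, the exception being Serpina1e. The fall in S100a6 was then -1.48 (adjusted p = 0.179), or -1.75 with 5 comparison cells (adjusted p = 0.0243), and that in Clu -0.64 (adjusted p = 0.683), or -1.45 with 5 comparison cells (adjusted p = 0.0131). Neat1 stayed lower at -1.98 (adjusted p = 0.0197). Tm4sf4 (-1.22), Krt18 (-0.91) and Malat1 (-0.98) did not pass with 1 comparison cell and did with 5 (-2.18, -1.21 and -1.91). Anxa3 and Sprr1a could be tested only with 5 and passed (-2.55 and -2.19). Lgals3 (-1.87) and Tinagl1 (-8.03), likewise tested only with 5, did not. Hmga2 and mVenus could not be tested with either number. The difference in S100a6 was thus smaller between cells of low Nras count with either number of comparison cells, and that in Clu depended on the number. The part of the construct level in these differences was not tested. Of the mitotic genes, 11 of 12 tested kinetochore and 9 of 10 tested spindle genes passed as higher under the Nras limit with 1 comparison cell, which the rule predetermines.

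**Figure D5:**
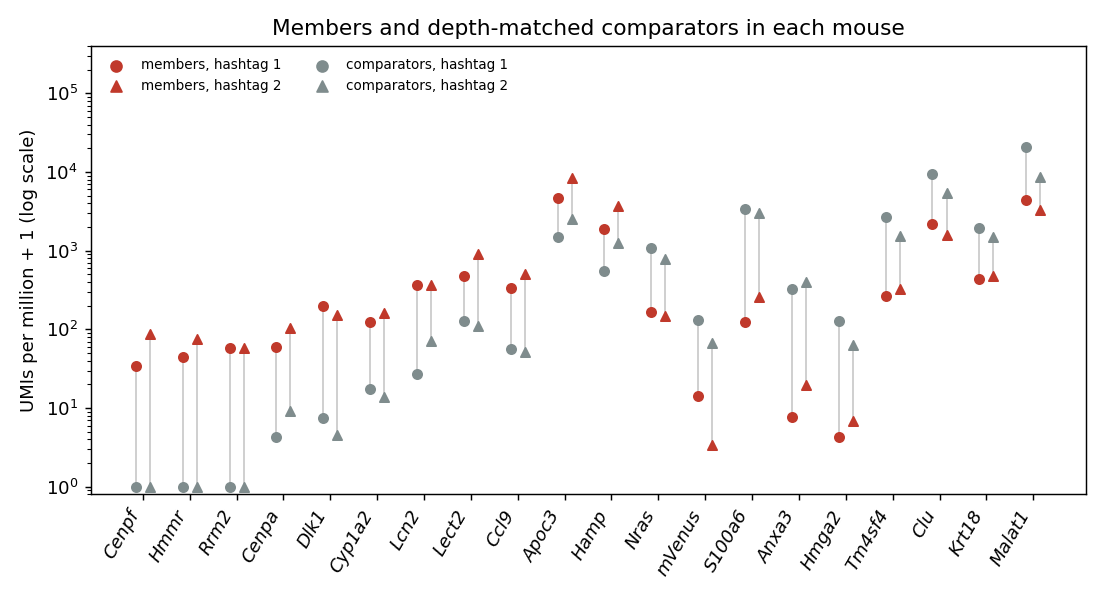
Level in CPM + 1 (log axis) of named genes in the summed proliferating (members, red) and depth-matched comparison hepatocytes (comparators, grey) of hashtag 1 (circles) and hashtag 2 (triangles), joined by lines within a mouse. Red lies above grey in both mice for genes from Cenpf to Hamp and below for genes from Nras on.

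Of the listed genes of hepatocyte function most were positive and few passed with 1 comparison cell per proliferating cell, and several genes of secreted liver proteins outside the lists rose. Of 34 tested genes of hepatocyte function (38 listed), 2 rose and 0 fell, 31 had positive log2 fold changes and the median was 0.76, and of 9 tested hepatocyte markers 1 rose (median 0.78). Over all tested genes 0.895% rose. With 5 comparison cells 11 of 36 tested genes of hepatocyte function rose and 0 fell, and 3 of 9 hepatocyte markers rose. Of all tested genes 3.2% rose there. Apoc3, an apolipoprotein of triglyceride-rich particles that is in both lists, had 1427 and 7128 UMIs against 458 and 2164 (1.77 ± 0.15; adjusted p = 0.0219). Cyp1a2, a pericentral cytochrome P450, had 37 and 136 against 5 and 11 (3.42 ± 0.34; adjusted p = 0.0338). Of the liver transcription factors 0 of 10 were called, with a median of -0.02 (Hnf4a -0.30, edgeR adjusted p = 0.57). With 1.37% of all tested genes called, a count of 0 in 10 cannot tell them from the rest. Outside the lists, and named after their values were seen, the hepcidin gene Hamp had 568 and 3121 UMIs against 168 and 1059 (1.74 ± 0.18; adjusted p = 0.0338). Lect2, a hepatokine, had 144 and 765 against 39 and 93 (2.59 ± 0.31). Lcn2, an acute-phase siderophore-binding protein, had 110 and 312 against 8 and 60 (2.95 ± 0.38; adjusted p = 0.0390), and the chemokine gene Ccl9 101 and 434 against 17 and 43 (3.09 ± 0.27; adjusted p = 0.0240). Ang, Rnase4, Tff3, Rarres2, Serpina3n and Apoc1 rose as well. Hamp, the Serpina1 and Serpina3 genes have near-identical copies, and Ang and Rnase4 share a locus, so reads of each may be divided between neighbours. Between cells under 2 Nras UMIs per 10000 the rise stayed past the threshold for Hamp (1.32; adjusted p = 0.0295), Lect2 (2.02; adjusted p = 0.033), Lcn2 (2.07; adjusted p = 0.0143) and Ccl9 (2.29; adjusted p = 0.0143), but not for Apoc3 (1.00; adjusted p = 0.266), and the median of the hepatocyte function list was 0.20 with 23 genes positive and 12 negative. With 5 such comparison cells Apoc3 passed (1.64, edgeR adjusted p = 0.0147) and 5 genes of the list rose, where 1.76% of all tested genes rose. In the list 26 were positive and 9 negative, and the median was 0.48.

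Dlk1, an imprinted Notch-related membrane protein of fetal hepatoblasts, was seen in a part of the proliferating cells. It had 59 and 127 UMIs in those of hashtags 1 and 2 against 2 and 3 in the comparison cells (log2 fold change 5.21 ± 0.38; adjusted p = 0.0219). With 5 comparison cells the change was 2.21 and no longer passed (adjusted p = 0.271), whereas with 5 comparison cells under 2 Nras UMIs per 10000 it was 3.27 (adjusted p = 0.024). In the higher mitochondrial class Dlk1 was seen in 21 of 41 proliferating and 99 of 2041 comparison cells (194 against 16.2 CPM), and in the low class in 13 of 121 and 44 of 4941 (32.9 against 3.2 CPM). Afp, the other classical oncofetal protein, did not move alike in the 2 mice, with 248 and 156 UMIs against 115 and 192 (0.49; adjusted p = 0.547).

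The 125 proliferating cells without a hashtag call entered no test and are given as levels of the same genes. Against 625 comparison cells without a call, matched in depth and in mitochondrial class, all 66 genes called above had the same direction. For the cell cycle genes among the 66 the rule predetermines this. The share with the same direction over all tested genes was not counted. Nras stood at 85.6 CPM in these proliferating cells against 727 CPM, S100a6 at 431 against 2580 CPM, Dlk1 at 135 against 8.73 CPM and Apoc3 at 5200 against 1900 CPM. Cdkn1a differed from the tested mice, at 147 against 78.6 CPM. Their mice are unknown, and they shared the pool and the library with the tested cells.

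Shares of proliferating hepatocytes differed between mice, and so did depth. They were 15 of 359 hepatocytes (4.18%, exact 95% interval 2.36 to 6.8%) in hashtag 1, 18 of 1295 (1.39%, 0.826 to 2.19%) in hashtag 2 and 2 of 204 (0.98%, 0.119 to 3.5%) in hashtag 3, with median depths of 10013, 41314 and 2316.5 UMIs. Cells without a call had 125 of 6073 (2.06%, 1.72 to 2.45%). Thinned to 5000 UMIs, hashtag 1 had 5 of 231 (2.16%, 0.706 to 4.98%), hashtag 2 had 8 of 1169 (0.684%, 0.296 to 1.34%) and hashtag 3 had 0 of 44, which allows up to 6.82%, and the intervals overlapped. A fixed rule for hashtags, of at least 10 hashtag UMIs with 80% from 1 tag, gave 44 of 1441 (3.05%), 2 of 411 (0.487%) and 1 of 90 (1.11%). Hashtag 1 was highest under all 3 countings. By the deposited pairing it is the NRAS(G12V/D38A) mouse and by the methods an NRAS(G12V) mouse, so the construct and the share cannot be tied here. Other gated barcodes also held at least 4 of the 10 genes, in 28 of 794 (3.53%, 2.36 to 5.06%) of the endothelial gate at a median of 3583 UMIs and in 41 of 1036 (3.96%, 2.85 to 5.33%) of the MHC class II gate at 9604.5.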

How the data were processed

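Gene UMI counts were deposited by the authors as 1 matrix for a pooled library of 3 mice, made with Cell Ranger 2.1.1 on mm10 per the labels, and hashtag UMI counts as a second matrix, counted with no mismatches. The files give 142080194 gene UMIs over 13151 barcodes (median 3908), of which 13141 were in both matrices and none was repeated. Cells were assigned to mice by HTODemux (Seurat 5.3.0, positive quantile 0.99). Hashtag doublets stayed among the 162 cells but entered no mouse, and no other doublet caller was run. The cells and gene lists were chosen with earlier results of these data known. Each proliferating cell was matched to 1 comparison cell of its mouse, nearest in UMIs within 0.1 on the log10 scale, and mice with at least 5 matched cells entered. UMI counts were summed per mouse and class and fitted with edgeR 4.0.16 (TMM, filterByExpr, glmQLFit, mouse as block, two-sided) in R 4.3.3, with the 10 rule genes, 12 gate genes, Nras, mVenus and hashtag rows left out of library sizes. The mouse block rests on cells of the same animal. The fit was tested on simulated counts. Named genes were the 15 largest rises and 15 largest falls past the threshold, moving alike in both mice at 20 CPM or more, plus fixed lists, and others are said to be named after their values were seen. Nras, read by the mouse row, and mVenus were tested although they select cells in the sort. Intervals are exact binomial or Poisson at 95%, a count of 0 is limited at 3 counts, and both cover counting error only. Thinning drew UMIs without replacement and left out shallower cells. At 2000 UMIs, 148 of the 162 proliferating and 5050 comparison cells remained. Alternatives used DESeq2 1.42.0, other normalisation, filters, thresholds, depths and comparison cells. DNA windows are RefSeq GRCm38.p6, and start sites of other annotations may lie a few bases away. A gene of the replication list is not reported here by name.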

Additional observations from a re-analysis of the deposited data

How the results depend on the processing

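Against 66 genes called (43 higher, 23 lower), all comparison cells unmatched in depth gave 1634 (948 and 686), no filter on low counts 581 (386 and 195), DESeq2 size factors 111 (77 higher) and DESeq2 itself 54, with 42 of the 66 among them. A threshold of 5 genes gave 33 (23 and 10) and of 3 genes 78 (14 lower). Cells thinned to 2000 UMIs gave 25 (12 and 13) of 522 tested, and no cells with Ptprc 110 (72 and 38). Chosen after seeing the data, 5 comparison cells gave 337 (219 and 118), cells under 2 Nras UMIs per 10000 gave 60 (11 lower) and 132 (98 higher) with 5 comparison cells, adding hashtag 3 gave 173 (104 and 69), removing the deepest cell of each mouse 30 (21 and 9) and matching the mitochondrial class 53. The share of higher calls, 65.2%, became 82.1% at 3 genes, 81.7% under the Nras limit and 48.0% after thinning.

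Without the replicate block, which pairs cells of the same mouse, 27 genes passed (19 higher, 8 lower). Called genes kept their sign wherever tested, except Serpina1e (-0.31 under the Nras limit). Leaving out a mouse leaves no residual degrees of freedom, so no test was run, and with the fixed hashtag rule the sums could not be fitted, since 1 mouse had enough cells.

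Thinning to 5000 UMIs moved the share in hashtag 1 from 4.18 to 2.16%, in hashtag 2 from 1.39 to 0.684% and in hashtag 3 from 0.98 to 0.0%, and the fixed rule gave 0.487% in hashtag 2. At 0 to 1 Nras UMIs the share of 2.21% was 1.18% in higher and 9.3% in low mitochondrial cells. At 2 to 9 it was 0.86% after thinning to 5000, 4.65% in low mitochondrial cells and 0.0% by mVenus. Thinning to 2000 UMIs reduced mitotic genes in at least 10% of cells from 60 to 36. Causes of these differences were not tested. Depth left Ccne1, Cdkn2a, E2f7 and Mybl2, each at 3 or fewer UMIs in every sum, and Myc untested.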

Other observations

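Glul, Cyp2e1 and Car3, chosen after their values were seen, differed in opposite directions in the 2 classes of barcode, and Glul is given with exact Poisson 95% intervals on pooled UMIs, which hold no error between mice. Glul, glutamine synthetase of the cells around the central vein, was at 90.1 CPM (69.2 to 115) in low mitochondrial proliferating cells against 341 CPM (333 to 350) in comparison cells, and at 106 CPM (90.2 to 123) against 53.5 CPM (51.7 to 55.3) in the higher class. Cyp2e1, a pericentral cytochrome P450, was at 117 against 287 CPM in the low class and 398 against 89.6 CPM in the higher class. Car3, a carbonic anhydrase, was at 648 against 1660 CPM and 86.0 against 43.9 CPM. In the fit of 2 mice Cyp2e1 had 80 and 313 UMIs against 62 and 124 (log2 fold change 0.97; edgeR adjusted p = 0.174).

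Of other genes, also named after their values were seen, Igfbp1 and Orm1 did not split this way and Xist did. Igfbp1, a fasting- and stress-induced secreted binding protein, was lower in both classes, at 57.2 against 239 CPM and 712 against 1710 CPM. The acute-phase gene Orm1 was higher in the higher class (595 against 122 CPM) and nearer in the low class (635 against 538 CPM). The nuclear RNA Xist was at 124 CPM, in 21 of 121 proliferating cells of the low class, against 19.9 CPM, in 122 of 4941 comparison cells, and at 557 against 647 CPM in the higher class.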
